A study of Homo sapiens with 12 samples.

Results

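Angiogenic and endothelial-type genes were described in 12 RNA-seq libraries of the human osteosarcoma line HOS. The 10 genes were VEGFA, VEGFB, VEGFC, FLT1, NRP1, NRP2, ESM1, TIE1, THSD1 and ANGPTL4, out of 25141 genes in the counts table. They were found by matching the Ensembl identifiers of the table to these symbols in GENCODE release 29, and each symbol matched 1 row. They were chosen by role and by their measured expression in HOS cells, as ligands and receptors of the vascular endothelial growth factor (VEGF) family and as genes typical of vessel lining cells. Their levels in HOS therefore belong to the choice, and their changes were known when they were picked, so the P-values below describe these libraries and are no independent evidence about the set.

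The study asked what the adaptor protein CIN85, encoded by SH3KBP1, does to gene expression in osteosarcoma cells. The upCIN85 cells were a pool selected with geneticin after transfection with a plasmid encoding full-length CIN85 (pRc/CMV2-Rukl), and the Mock cells carried the vector without insert. A mixture of 3 siRNAs targeting CIN85 was given to the siCIN85 cells, whereas siNeg cells received a non-targeting siRNA. Each group had 3 libraries, and P-values measure the spread between these samples. The study's methods speak of biological replicates in general, and the labels do not say whether the libraries of a group came from separate cultures, so part of this spread may be technical. All groups are the same cell line, and the upCIN85 pool mixes cells with different plasmid insertions. The study's methods describe no independently selected pools of the same construct. An effect of CIN85 and a difference between the selected pools therefore cannot be told apart in upCIN85 versus Mock.

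VEGF ligands are secreted proteins that direct the growth of blood and lymph vessels. VEGFA and VEGFB bind the receptor tyrosine kinase FLT1 (VEGFR1), which takes up ligand with high affinity but signals weakly, and VEGFC acts mainly on the lymphatic receptor FLT4. The neuropilins NRP1 and NRP2 are co-receptors shared by VEGF ligands and class 3 semaphorins. TIE1 is a receptor partner of TEK, the angiopoietin receptor, ESM1 (endocan) is a proteoglycan secreted by sprouting endothelial cells, and THSD1 is a membrane protein with a thrombospondin domain found on endothelial cells. ANGPTL4 is a secreted inhibitor of lipoprotein lipase that is known as a target of PPAR transcription factors and of low oxygen. Tumours of bone are known to secrete VEGFA, and VEGF ligands also act on bone-forming cells.

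Total counts were 5334731 to 5774968 (Mock), 5726535 to 6049458 (upCIN85), 4011368 to 4174860 (siNeg) and 3540641 to 3991517 (siCIN85). SH3KBP1 itself had 342, 357 and 317 counts in siNeg and 16, 31 and 37 in siCIN85, a log2FC of −3.51 (adjusted P = 5.09e-08, edgeR quasi-likelihood test). It had 407, 488 and 416 counts in Mock and 406, 551 and 487 in upCIN85, a log2FC of 0.07 (adjusted P = 0.887, edgeR). The libraries read the 3′ ends of transcripts, and plasmid transcripts may end outside the annotated gene, so this count does not check the upCIN85 label. The paper measured CIN85 protein in its cell sublines by western blot and describes the full-length form as overexpressed in upCIN85. Levels are given as CPM, the counts of a gene scaled to the TMM-normalized total of its library, and are compared only within a gene.

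In upCIN85 versus Mock, FLT1 and THSD1 fell, so 2 of the 10 genes passed the edgeR quasi-likelihood test (adjusted P-value under 0.05). Of all 12542 genes tested, 1.23% passed, 0.439% higher and 0.789% lower. In siCIN85 versus siNeg, 4 of the 10 passed, beside 1.04% of all genes. ANGPTL4, TIE1 and ESM1 rose (0.59% of all genes) and NRP2 fell (0.454%). ANGPTL4 and TIE1 met the filter on low counts in all libraries of a group only in siCIN85. A rise was thus built into their being tested, and their calls add no support. The labels do not say whether replicate numbers mark pairs. In a fit blocked on the replicate number of the knockdown experiment, ANGPTL4, TIE1, ESM1 and NRP2 passed again, and the count over all genes rose from 131 to 429.

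Groups did not overlap for 5 of the 10 genes in upCIN85 versus Mock, beside 20.7% of all genes. VEGFA and NRP2 were higher in all upCIN85 libraries (9.74% of all genes were), and FLT1, ESM1 and THSD1 were lower (11% of all genes). In siCIN85 versus siNeg groups did not overlap for 5 genes, beside 20.2% of all. ESM1, TIE1, THSD1 and ANGPTL4 were higher in all siCIN85 libraries (9.91% of all genes), and NRP2 was lower (10.2%). An unadjusted P below 0.05 was found for 6 of the 10 genes in upCIN85 versus Mock (14.5% of all genes) and for 5 in siCIN85 versus siNeg (15.7%). The median log2FC of the 10 genes was 0.24 in upCIN85 versus Mock, against 0.01 over all genes, and 0.30 in siCIN85 versus siNeg, against −0.01.

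All 10 genes passed the filter on low counts, which kept a gene with about 2.10 CPM in at least 3 libraries. TIE1 reached this level in 5 libraries and ANGPTL4 in 4, and each did so in all libraries of a group only in siCIN85. These genes entered the test through the group where they were high, so a difference was built into their selection. ESM1 reached it in 9 libraries, none of them upCIN85.

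**Figure D1:**
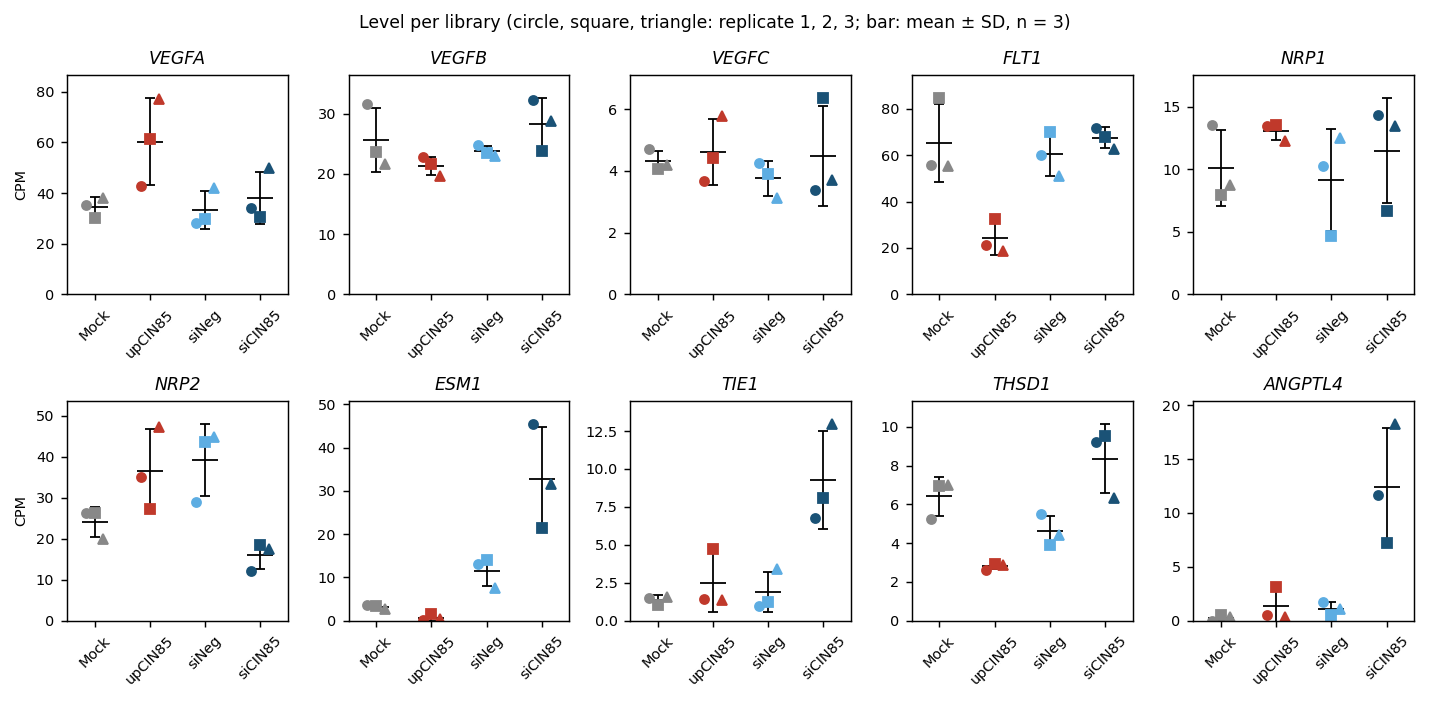
Level of each gene in CPM (vertical axes, linear from 0) in the 4 groups, with replicates 1, 2 and 3 as circle, square and triangle, and the mean ± SD of 3 libraries as bars. FLT1 and THSD1 were lowest in upCIN85, NRP2 was lowest in siCIN85, and ESM1, TIE1 and ANGPTL4 were highest in siCIN85.

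The promoters of the 4 genes that passed in siCIN85 versus siNeg are shown here because these genes moved in the same comparison. Each is the 250 bases before the RefSeq transcription start on GRCh38.p14, on the gene's strand, and capitals mark the ETS core, written AGGAAG or CGGAAG, on either strand. ETS factors are transcription factors known for endothelial genes. RefSeq entries were matched for 8 of the 10 genes, all except VEGFA and NRP1. NRP2 is at chr2:205682251-205682500 (plus strand), ESM1 at chr5:54985594-54985843 (minus), TIE1 at chr1:43300732-43300981 (plus) and ANGPTL4 at chr19:8363905-8364154 (plus).
NRP2: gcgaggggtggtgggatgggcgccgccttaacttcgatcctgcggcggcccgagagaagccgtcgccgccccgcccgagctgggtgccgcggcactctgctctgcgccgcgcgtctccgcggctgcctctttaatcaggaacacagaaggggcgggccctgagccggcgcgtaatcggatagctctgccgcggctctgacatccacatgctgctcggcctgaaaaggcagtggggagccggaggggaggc
ESM1: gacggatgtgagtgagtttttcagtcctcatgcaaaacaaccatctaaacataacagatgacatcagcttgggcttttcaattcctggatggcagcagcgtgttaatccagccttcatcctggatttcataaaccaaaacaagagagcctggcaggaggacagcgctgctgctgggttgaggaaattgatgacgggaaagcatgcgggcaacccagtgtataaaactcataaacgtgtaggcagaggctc
TIE1: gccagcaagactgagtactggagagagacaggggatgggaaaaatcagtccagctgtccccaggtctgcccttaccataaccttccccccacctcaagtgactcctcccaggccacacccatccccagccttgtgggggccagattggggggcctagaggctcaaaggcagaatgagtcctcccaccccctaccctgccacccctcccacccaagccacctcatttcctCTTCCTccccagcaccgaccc
ANGPTL4: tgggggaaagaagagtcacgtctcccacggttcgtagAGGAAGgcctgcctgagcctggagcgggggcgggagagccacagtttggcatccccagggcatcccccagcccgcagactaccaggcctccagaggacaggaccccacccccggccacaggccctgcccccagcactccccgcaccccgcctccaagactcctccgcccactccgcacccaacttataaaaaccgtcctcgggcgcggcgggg

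The ETS core was in the windows of TIE1 and ANGPTL4 and not in those of NRP2 and ESM1. It was in 4 of the 8 matched promoters (VEGFC, FLT1, TIE1 and ANGPTL4), beside 40.8% of 35116 promoters of this length. The hypoxia response core, ACGTG or GCGTG on either strand, was in 6 of 8 (43.2% of all), and TATAAA on either strand in 3 of 8, those of FLT1, ESM1 and ANGPTL4 (10.7% of all). The AP-1 letters TGANTCA were in none of the 8 (6.57% of all), nor was the exact DR1 consensus of PPAR factors (0.0171% of all). These matches describe letters in a window.

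VEGFA (ENSG00000112715, chromosome 6 from 43770184 to 43786487, plus strand, GRCh38) is the main driver of vessel growth. It was at 35.4, 30.0 and 38.1 CPM in Mock replicates 1 to 3 and at 42.7, 61.3 and 77.0 CPM in upCIN85. Every upCIN85 library lay above every Mock library. The log2FC was 0.81 (SE 0.21, 95% confidence interval 0.36 to 1.25), and it did not pass after adjustment (adjusted P = 0.0667, edgeR quasi-likelihood test). It passed in DESeq2 (adjusted P = 0.0234) and with only the 6 libraries of the comparison (0.0391). In the knockdown, VEGFA was at 28.2, 29.8 and 41.9 CPM in siNeg and 34.0, 30.7 and 49.9 CPM in siCIN85. These groups overlapped, with a log2FC of 0.20 (95% confidence interval −0.28 to 0.68, adjusted P = 0.709, edgeR).

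VEGFB (ENSG00000173511, chromosome 11 from 64234538 to 64238793, plus strand), a ligand of FLT1 known for lipid handling in muscle and heart, was at 25.6 ± 5.31 CPM in Mock and 21.3 ± 1.52 in upCIN85 (mean ± SD, n = 3). It was at 23.7 ± 0.936 CPM in siNeg and 28.3 ± 4.31 in siCIN85. Its log2FC was −0.26 in upCIN85 versus Mock (adjusted P = 0.493) and 0.26 in siCIN85 versus siNeg (adjusted P = 0.481, edgeR). VEGFC (ENSG00000150630, chromosome 4 from 176683538 to 176792727, minus strand), the lymphatic growth factor, was low, with 12 to 34 counts per library. Mock cells had 4.33 ± 0.331 CPM and upCIN85 cells 4.62 ± 1.07, siNeg cells 3.76 ± 0.576 and siCIN85 cells 4.49 ± 1.63 (SD, n = 3). The log2FC of VEGFC was 0.10 in upCIN85 versus Mock (95% confidence interval −0.50 to 0.69) and 0.23 in siCIN85 versus siNeg (−0.44 to 0.91), and the groups overlapped in both.

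FLT1 (ENSG00000102755, chromosome 13 from 28300344 to 28495145, minus strand), the VEGFA and VEGFB receptor, fell in upCIN85. It was at 55.9, 84.5 and 55.4 CPM in Mock replicates 1 to 3 and at 21.2, 32.4 and 18.7 CPM in upCIN85. Every upCIN85 library lay below every library of the other groups. The log2FC was −1.44 (SE 0.20, 95% confidence interval −1.86 to −1.01, adjusted P = 0.00174, edgeR quasi-likelihood test), or 2.71-fold lower. FLT1 passed also with each of the 6 libraries left out in turn, with log2FC from −1.71 to −1.21. In the knockdown the levels overlapped, at 60.2, 70.1 and 51.0 CPM in siNeg and 71.6, 68.0 and 62.6 CPM in siCIN85. The log2FC there was 0.16 (95% confidence interval −0.26 to 0.57, adjusted P = 0.743, edgeR). FLT1 also makes a secreted form that lacks the kinase part, and these counts do not separate the forms.

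NRP1 (ENSG00000099250, chromosome 10 from 33177492 to 33336262, minus strand), the co-receptor of VEGFA and semaphorin 3A, overlapped between groups in both comparisons. Mock cells had 10.1 ± 3.01 CPM, upCIN85 cells 13.1 ± 0.737, siNeg cells 9.13 ± 4.05 and siCIN85 cells 11.5 ± 4.2025 (SD, n = 3). Its log2FC was 0.38 in upCIN85 versus Mock (95% confidence interval −0.24 to 1.00) and 0.35 in siCIN85 versus siNeg (−0.34 to 1.04). In both knockdown groups the library numbered 2 was the lowest, at 4.64 CPM in siNeg and 6.65 CPM in siCIN85.

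NRP2 (ENSG00000118257, chromosome 2 from 205681990 to 205798133, plus strand), the co-receptor known for lymphatic VEGFC signals and semaphorin 3F, fell after CIN85 knockdown. It was at 28.99, 43.5 and 44.8 CPM in siNeg and 12.1, 18.5 and 17.4 CPM in siCIN85. Every siCIN85 library lay below every library of the other groups. The log2FC was −1.29 (SE 0.23, 95% confidence interval −1.78 to −0.80, adjusted P = 0.0160, edgeR quasi-likelihood test), or 2.45-fold lower. In upCIN85 it was at 35.1, 27.1 and 47.3 CPM, and in Mock at 26.1, 26.1 and 19.8 CPM. The upCIN85 libraries lay above the Mock libraries, with a log2FC of 0.60 (SE 0.21, adjusted P = 0.172, edgeR). The knockdown call was lost without siNeg replicate 2 (adjusted P = 0.0789, edgeR), siCIN85 replicate 1 (0.128) or siCIN85 replicate 3 (0.0571), while the log2FC stayed between −1.47 and −1.12.

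**Figure D2:**
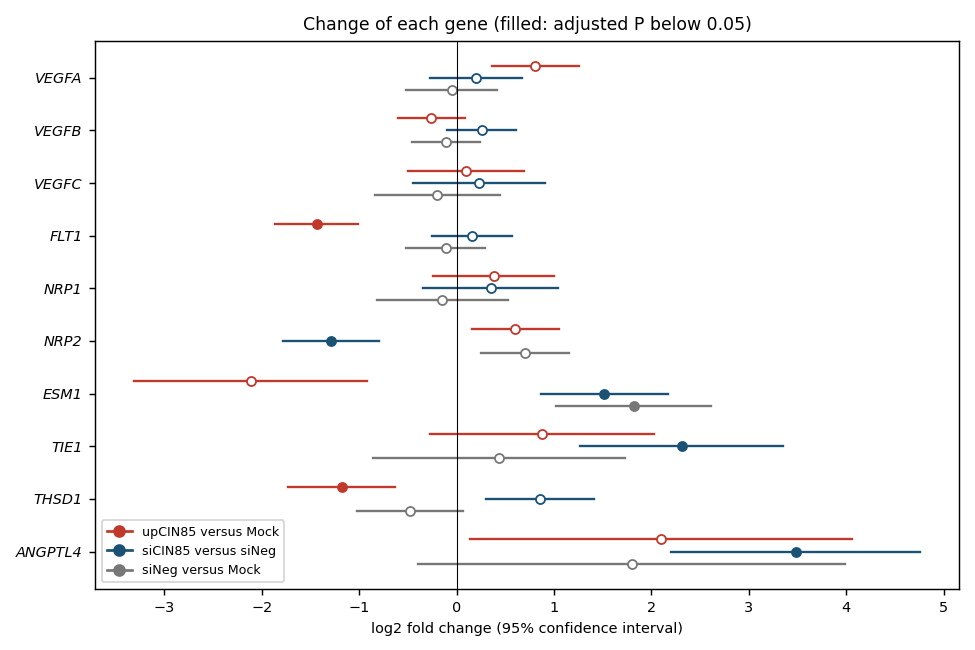
Log2 fold change (horizontal axis) of each gene with its 95% confidence interval in upCIN85 versus Mock, siCIN85 versus siNeg and siNeg versus Mock. Filled points have an adjusted P-value below 0.05 (edgeR), and ANGPTL4 has the largest change, 3.48 in siCIN85 versus siNeg.

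ESM1 (ENSG00000164283, chromosome 5 from 54977864 to 55022671, minus strand), the endothelial proteoglycan, differed between the groups of both experiments. It was at 0.175, 1.63 and 0.340 CPM in upCIN85 and 3.57, 3.40 and 2.81 CPM in Mock. It was at 13.0, 13.9 and 7.55 CPM in siNeg and 45.4, 21.4 and 31.7 CPM in siCIN85. Within each experiment the groups did not overlap, upCIN85 lying below Mock and siNeg below siCIN85. Every siNeg library also lay above every Mock library, a difference between the experiments' controls that is given further on. In siCIN85 versus siNeg ESM1 rose by a log2FC of 1.52 (SE 0.31, 95% confidence interval 0.87 to 2.16, adjusted P = 0.0264, edgeR quasi-likelihood test), or 2.86-fold. Between upCIN85 and Mock its log2FC was −2.11 (SE 0.57, 95% confidence interval −3.31 to −0.92, adjusted P = 0.0723, edgeR). That value rests on 1, 10 and 2 reads in upCIN85 against 19, 20 and 16 in Mock, and without upCIN85 replicate 2, the library with 10 reads, it was −3.52 (adjusted P = 0.0182, edgeR). The DESeq2 adjusted P for it was 0.00635. The knockdown call held only without siCIN85 replicate 2 among the 6 fits that left out a library, and was lost without siNeg replicate 1 (adjusted P = 0.0796, edgeR), 2 (0.0797) or 3 (0.0549) and without siCIN85 replicate 1 (0.177) or 3 (0.0837). The log2FC in those fits was 1.20 to 1.73. With only the 6 libraries of the comparison the adjusted P of ESM1 was 0.0533 (edgeR).

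TIE1 (ENSG00000066056, chromosome 1 from 43300993 to 43323108, plus strand), the angiopoietin co-receptor, rose after knockdown from a low level. It had 4, 5 and 13 reads in siNeg, or 1.00, 1.22 and 3.39 CPM, and 28, 28 and 49 reads in siCIN85, or 6.80, 8.10 and 12.9 CPM. Every siCIN85 library lay above every library of the other groups. The log2FC was 2.31 (SE 0.49, 95% confidence interval 1.27 to 3.35, adjusted P = 0.0317, edgeR quasi-likelihood test), the fifth highest of all genes tested. TIE1 met the filter on low counts in all libraries of a group only in siCIN85, which limits this rank. Without siNeg replicate 1 or 2, or siCIN85 replicate 1 or 3, the adjusted P was 0.126, 0.171, 0.102 and 0.145 in that order (edgeR), and the log2FC in all 6 such fits was 1.98 to 3.02. With only the 6 libraries of the comparison the adjusted P of TIE1 was 0.0533 as well (edgeR). In upCIN85, TIE1 was at 1.40, 4.74 and 1.36 CPM, and in Mock at 1.505, 1.02 and 1.58 CPM. Only upCIN85 replicate 2 stood above Mock, and the log2FC of 0.88 (adjusted P = 0.489, edgeR) was 0.02 without it.

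THSD1 (ENSG00000136114, chromosome 13 from 52377167 to 52416373, minus strand), the thrombospondin domain protein of endothelial cells, fell in upCIN85. It was at 5.27, 6.96 and 7.01 CPM in Mock and 2.62, 2.94 and 2.89 CPM in upCIN85. Every upCIN85 library lay below every library of the other groups. The log2FC was −1.18 (SE 0.26, 95% confidence interval −1.73 to −0.63, adjusted P = 0.0340, edgeR quasi-likelihood test), or 2.27-fold lower. Of the 6 fits with 1 library left out, the call held only without Mock replicate 1, and the adjusted P ranged from 0.0480 to 0.168 (edgeR). In siNeg it was at 5.50, 3.91 and 4.43 CPM and in siCIN85 at 9.22, 9.54 and 6.34 CPM. The siCIN85 libraries lay above siNeg, with a log2FC of 0.86 (SE 0.26, adjusted P = 0.122, edgeR), and in edgeR fits blocked on replicate number the adjusted P was 0.0483 (both experiments blocked) and 0.0846 (knockdown alone). The 5′ end of THSD1 is overlapped on the same strand by VPS36, which had 185 to 401 counts. The 3′ end of THSD1, which these libraries read, is at 52377167, outside the overlap from 52412602 to 52416373. The split of reads between the 2 genes is uncertain only within the overlap.

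ANGPTL4 (ENSG00000167772, chromosome 19 from 8363289 to 8374373, plus strand), the lipoprotein lipase inhibitor, rose after knockdown and had the highest log2FC of the 12542 genes. ANGPTL4 met the filter on low counts in all libraries of a group only in siCIN85, which limits this rank. It had 7, 2 and 4 reads in siNeg, or 1.75, 0.489 and 1.04 CPM, and 48, 25 and 69 reads in siCIN85, or 11.6, 7.23 and 18.2 CPM. Every siCIN85 library lay above every library of the other groups. The log2FC was 3.48 (SE 0.61, 95% confidence interval 2.20 to 4.76, adjusted P = 0.0136, edgeR quasi-likelihood test), or 11.1-fold. The call was lost without siNeg replicate 2 (adjusted P = 0.0797, edgeR), siCIN85 replicate 1 (0.0716) or siCIN85 replicate 3 (0.0681), with log2FC from 3.08 to 3.99. In upCIN85 it had 3, 19 and 2 reads and in Mock 0, 3 and 2. A count of 0 in Mock replicate 1 allows up to 0.564 CPM, 3 counts in that library. The groups overlapped, the summed counts gave a ratio of 4.58 (95% interval 1.71 to 15.4, counting error only), and the adjusted P was 0.307 (edgeR). Without upCIN85 replicate 2 the log2FC fell from 2.10 to 0.51.

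**Figure D3:**
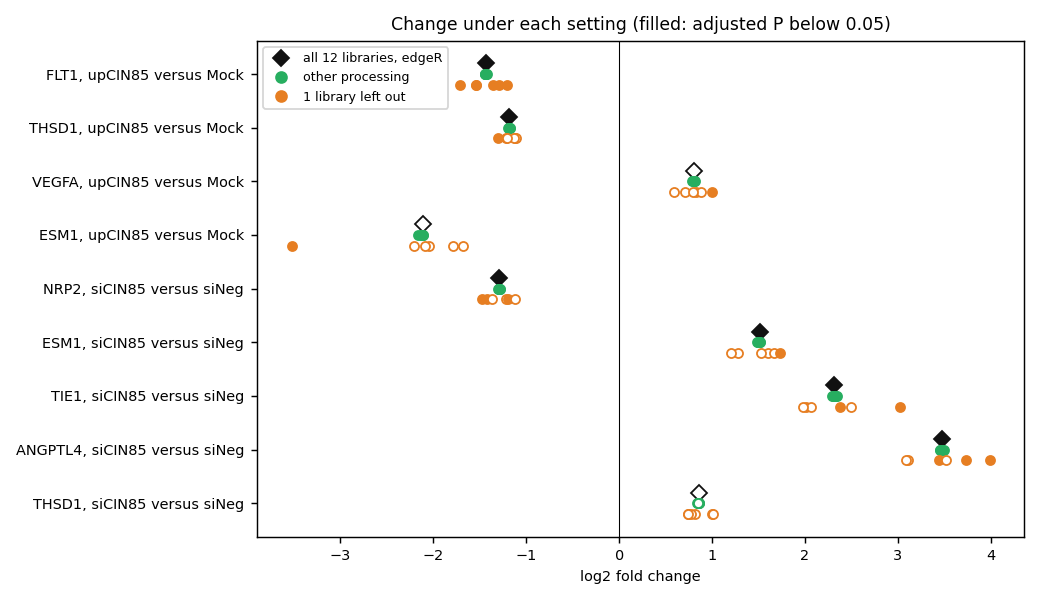
Log2 fold change (horizontal axis) for 9 gene and comparison pairs under the edgeR fit of all 12 libraries (diamonds), other processing (green) and with 1 library left out (orange), filled where the adjusted P-value was below 0.05. Every point kept its side of 0, and FLT1 in upCIN85 versus Mock is filled throughout, whereas ESM1 in siCIN85 versus siNeg has 1 filled orange point.

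The difference between both effects, (upCIN85 minus Mock) minus (siCIN85 minus siNeg), was tested for each gene in the same edgeR fit. It passed for 4 of the 10 genes, beside 0.973% of all genes, 1 positive (0.287% of all) and 3 negative (0.686% of all). The difference was −3.63 for ESM1 (SE 0.64, adjusted P = 0.0121), −2.04 for THSD1 (SE 0.37, 0.0142), −1.59 for FLT1 (SE 0.28, 0.0121) and 1.89 for NRP2 (SE 0.31, 0.00771). ESM1 and THSD1 were lower in upCIN85 than in Mock and higher in siCIN85 than in siNeg, and NRP2 was the reverse. FLT1 was lower in upCIN85 and overlapped in the knockdown. For ANGPTL4 the difference was −1.38 with a 95% confidence interval of −4.35 to 1.58 (adjusted P = 0.707, edgeR), an interval that covers 0. TIE1 had a difference of −1.43 (adjusted P = 0.413, edgeR), and VEGFA of 0.61 (0.381). With each of the 12 libraries left out, FLT1 and NRP2 passed in 12 fits, ESM1 in 11 and THSD1 in 9. ESM1 was lost without upCIN85 replicate 3 (adjusted P = 0.0575, edgeR), and THSD1 without Mock replicate 2 (0.0600), Mock replicate 3 (0.0533) or siCIN85 replicate 1 (0.0518).

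The 2 control groups were set against each other to show what the experiments differ in without a change of CIN85. In siNeg versus Mock, 1 of the 10 genes passed, beside 0.526% of all genes (0.415% higher and 0.112% lower). ESM1 was 3.52-fold higher in siNeg, with a log2FC of 1.82 (SE 0.38, adjusted P = 0.0365, edgeR quasi-likelihood test). The call held only without siNeg replicate 3 when 1 library was left out. NRP2 was also higher in every siNeg library than in every Mock library (log2FC 0.70, adjusted P = 0.174, edgeR). These are 2 genes that did not overlap, beside 19.4% of all genes, of which 9.48% were higher and 9.94% lower. Transfection type, selection and experiment differ together between Mock and siNeg and cannot be told apart. Where a level is placed above or below those of all other groups, this describes the libraries, and differences across the experiments were tested only between these controls.

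Other genes of the pathways were taken from lists of 5 to 16 genes each. Of all genes, 14.5% had an unadjusted P below 0.05 in upCIN85 versus Mock and 15.7% in siCIN85 versus siNeg (edgeR). The counts at that level for these lists and for the markers are to be read beside those shares. Of the other ligands, PGF (placental growth factor, a FLT1 ligand) averaged 4.85 CPM (Mock), 2.97 (upCIN85), 3.34 (siNeg) and 6.26 (siCIN85), and its adjusted P was 0.450 in upCIN85 versus Mock and 0.316 in siCIN85 versus siNeg (edgeR). VEGFD had at most 3 counts in every library. The receptors KDR and FLT4, the main signalling partners of VEGFA and VEGFC, were too low to be tested.

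Of 10 class 3 semaphorin and plexin genes tested, which are the other partners of neuropilins, 0 passed the edgeR test in upCIN85 versus Mock and 0 in siCIN85 versus siNeg, 2 and 6 had an unadjusted P below 0.05, and DESeq2 called 0 in each. Their median log2FC was 0.07 and −0.39. In the difference of both effects PLXNA2 (plexin A2) passed (−1.76, adjusted P = 0.0466, edgeR), and DESeq2 called PLXNA2 and SEMA3C (semaphorin 3C, 1.54). Of the 9 oxygen sensing regulators of VEGFA, 0 passed in either comparison (edgeR), 1 and 2 had an unadjusted P below 0.05, DESeq2 called 0, and the medians were 0.13 and −0.03. Of 9 Notch genes of vessel sprouting, 0 passed in either comparison (edgeR), 2 and 2 had an unadjusted P below 0.05, DESeq2 called 0, and the medians were −0.28 and −0.10.

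Of 14 other secreted angiogenic factors, 0 passed in either comparison (edgeR), with 5 and 7 at an unadjusted P below 0.05 and medians of −0.36 and −0.21. DESeq2 called 1 of them in upCIN85 versus Mock, EFNA1 (ephrin A1, log2FC −0.75), and 0 in siCIN85 versus siNeg. EFNA1 was also higher in siNeg than in Mock (log2FC 1.102, adjusted P = 0.0195, edgeR), and DESeq2 called EFNB2 (ephrin B2, −0.86) in the difference of both effects. Of 8 angiogenesis inhibitors, 0 passed in either comparison (edgeR), 5 and 3 had an unadjusted P below 0.05, and the medians were 0.21 and −0.40. DESeq2 called SERPINF1 and COL18A1 in upCIN85 versus Mock, with log2FC 1.45 and −0.61, and 0 in siCIN85 versus siNeg. VASH1 (vasohibin 1) passed in the difference of both effects (2.82, adjusted P = 0.0461, edgeR). It had 20 to 23 reads per library in upCIN85 and 1 to 5 in siCIN85. VASH1 met the filter on low counts in all libraries of a group only in upCIN85, where it was high. A difference was thus built into its being tested, and its call adds no support.

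Of 8 PPAR target genes tested, 2 passed in siCIN85 versus siNeg, ANGPTL4 and PLIN2 (edgeR), beside 1.04% of all genes. Both rose (0.59% of all genes), and DESeq2 called the same 2. ANGPTL4 entered the test through siCIN85, where it was high, so its call adds no support for this list. PLIN2, the coat protein of lipid droplets, was at 171, 193 and 211 CPM in siNeg and 297, 282 and 304 CPM in siCIN85. The siCIN85 libraries lay above the others, with a log2FC of 0.62 (SE 0.12, adjusted P = 0.0253, edgeR). The median log2FC of the 8 genes was 0.31, against −0.01 over all genes. In upCIN85 versus Mock, 0 of the 8 passed (edgeR), 1 had an unadjusted P below 0.05 and DESeq2 called 0.

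Markers of endothelial cells were looked at because these genes are typical of them. Of 18 endothelial markers in the table, 7 had at most 3 counts in every library (CLDN5, CLEC14A, EMCN, MMRN2, NOS3, PROX1 and VWF), and PECAM1 and KDR had 0 to 6 counts. CDH5 had 2 to 36 counts. The 18 markers summed to 19.0 to 26.5 CPM (Mock), 19.2 to 22.8 (upCIN85), 22.2 to 34.5 (siNeg) and 37.2 to 37.6 (siCIN85). It was higher in siCIN85 than in every other library, as were ESM1, TIE1 and ANGPTL4, and its part in those results was not tested. ROBO4, a guidance receptor of endothelial cells, had 3, 6 and 15 reads in siNeg and 31, 11 and 38 in siCIN85 (log2FC 1.78, adjusted P = 0.0923, edgeR), and 7, 5 and 6 in Mock against 15, 30 and 15 in upCIN85 (log2FC 1.64, adjusted P = 0.142). In siCIN85 versus siNeg, the estimates were above 0 for ECSCR (log2FC 0.74, adjusted P = 0.241, edgeR), ESAM (0.68, 0.474), ERG (0.27, 0.786) and SOX17 (0.04, 0.976). They were below 0 for TEK (log2FC −0.49, adjusted P = 0.752, edgeR) and CDH5 (−0.35, 0.860). The libraries of the 2 groups overlapped for each of these genes, and the median of the 7 tested markers was 0.27. Of markers too low to be tested, KDR averaged 0.338 CPM in siNeg and 1.08 CPM in siCIN85. SOX18 and EGFL7 averaged 1.41 and 1.26 CPM in siNeg and 0.346 and 0.959 CPM in siCIN85. The markers of the list thus did not all differ in one direction. Of the 7 endothelial markers tested, 0 passed in either comparison (edgeR), 1 and 2 had an unadjusted P below 0.05 and DESeq2 called 0. All libraries were labelled as HOS cells. In such bulk libraries, a change in how many cells carry a transcript and a change in RNA per cell cannot be told apart.

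**Figure D4:**
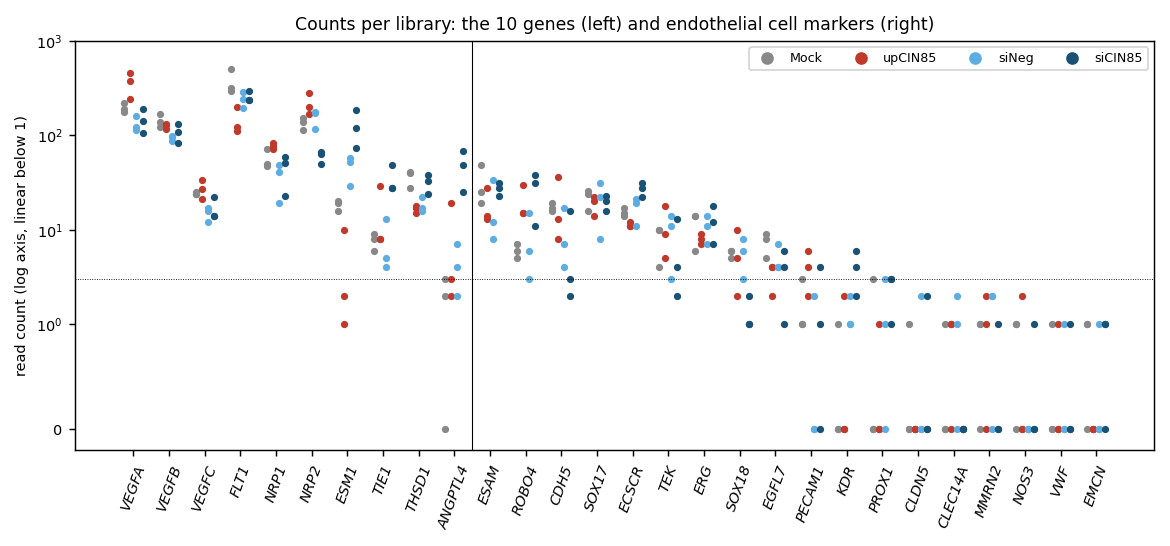
Read count per library (vertical axis, log scale, linear below 1) for the 10 genes on the left and the 18 endothelial markers on the right, coloured by group, with a dotted line at 3 counts. VWF, EMCN and NOS3 lie at or below this line in every library, while VEGFA and FLT1 lie above 100 counts in every library.

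Of 10 listed markers of bone-forming and mesenchymal cells, 8 were in the counts table. These 8 summed to 1783 to 2248 CPM (Mock), 1908 to 2571 (upCIN85), 1723 to 2088 (siNeg) and 1200 to 1605 (siCIN85), and IBSP (bone sialoprotein) had at most 3 counts in every library. COL1A1, VIM and SPARC averaged 729, 594 and 545 CPM in Mock, whereas RUNX2, SPP1 and ALPL averaged 23.9, 1.56 and 0.947 CPM. The sums thus mainly follow the first 3 and do not check the label of the cell line. The siCIN85 sums lay below all others, and the part of this in the results above was not tested. ALPL, the alkaline phosphatase of osteoblasts, and COL1A2, a chain of collagen I, rose in upCIN85 versus Mock (log2FC 1.76, adjusted P = 0.0340, and 1.35, adjusted P = 0.0439, edgeR), 2 of the 7 markers tested, beside 0.439% of all genes higher. ALPL was at 2.80 to 3.76 CPM in upCIN85 and at most 1.06 CPM in the other groups. It entered the test through the group where it was high, so its call adds no support. COL1A2 overlapped between the groups, with 62.9 CPM in the lowest upCIN85 and 84.8 CPM in the highest Mock library. DESeq2 called neither ALPL nor COL1A2 and 1 other marker, SPP1 (osteopontin, 2.08), while SPARC (osteonectin) had a log2FC of −0.35 (adjusted P = 0.330, edgeR). In siCIN85 versus siNeg, 0 of the 7 passed (edgeR), 4 had an unadjusted P below 0.05, and DESeq2 called 1, COL1A1 (−0.71). ALPL had a log2FC of 1.70 there (adjusted P = 0.282, edgeR), which rests on 0 to 2 reads per siNeg library and 2 to 4 per siCIN85 library. The epithelial markers EPCAM and CDH1 summed to 50.6 to 56.1 CPM (Mock), 69.8 to 82.6 (upCIN85), 49.4 to 60.7 (siNeg) and 44.8 to 54.9 (siCIN85), highest in the upCIN85 libraries, where FLT1 and THSD1 were lowest. Of these 2 markers 0 passed in upCIN85 versus Mock (edgeR), both had an unadjusted P below 0.05, and DESeq2 called 0. The 4 blood cell markers summed to 1.93 to 2.89 CPM (Mock), 1.40 to 2.89 (upCIN85), 0.9996 to 2.60 (siNeg) and 2.892 to 4.85 (siCIN85), and were too low to be tested. The part of both lists in the results above was not tested.

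Genes with the most similar pattern were found by Pearson r of log2 CPM over the 12 libraries. These fall into 4 groups, so r mainly follows the group means and is a description. FLT1 was most like NFE2L3 (0.974), ADARB1 (0.957) and CDH4 (0.955), and THSD1 was most like SHE (0.942), TMEM33 (0.941) and CBL (0.925). NRP2 was most like LRIG3 (0.930), ENSG00000233461 (0.899) and TUT4 (0.898). ESM1 was most like LCP1 (0.986), IL4R (0.981) and RELN (0.960). TIE1 was most like ZNF891 (0.944), TNFRSF8 (0.938) and PLIN2 (0.936), and ANGPTL4 was most like RITA1 (0.946), GNPDA1 (0.940) and SSU72 (0.936).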

How the data were processed

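RNA-seq was made from 12 libraries of HOS cells in 4 groups of 3, with groups and replicate numbers from the labels. The libraries were QuantSeq 3′ FWD with unique molecular identifiers, read as single ends on a NextSeq instrument. The authors deposited raw read counts per Ensembl gene from featureCounts. The submitters' processing notes name GRCh38, FastQC, cutadapt 4.3, STAR 2.7.3a, Picard 2.25.6, MultiQC 1.10.1 and Subread 2.0. The annotation release, strand setting and collapsing of identifiers are not given in the sources used here. Of 25141 identifiers, 95 had no GENCODE release 29 match.

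Counts were tested in R 4.3.3 with edgeR 4.0.16: filterByExpr (minimum count 10, minimum total 15) kept 12542 genes, TMM was applied, and 1 quasi-likelihood fit of all libraries had 8 residual degrees of freedom. P-values were two-sided, Benjamini-Hochberg adjusted over all tested genes, with a threshold of 0.05. With 3 libraries a group, the smallest exact permutation P is 0.1. Depth was 3540641 to 6049458 counts per library, and count intervals and floors cover counting error only.

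The members and gene lists were chosen with earlier results of these data known. All members were named, and of the lists each gene that passed in upCIN85 versus Mock or siCIN85 versus siNeg. PGF, FLT4, ROBO4, ECSCR, ESAM, ERG, SOX17, PECAM1, KDR, CDH5, TEK, SOX18, EGFL7, SPARC, VIM, RUNX2, EPCAM and CDH1, the list genes that DESeq2 called, and those that passed only in the other comparisons were named after their values were seen. Alternatives were a 6-library fit, RLE size factors, no filter, a stricter filter of 10 or more counts in all libraries, the replicate block, each library left out, and DESeq2 1.42.0. Deviations from the group means correlated between siNeg and siCIN85 libraries of the same label number (r = 0.353, 0.269 and 0.446). On that ground the numbers were taken as pairs in the blocked fits, though the labels do not state pairs. The test was tried on simulated data. No 2 libraries were duplicates.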

Additional observations from a re-analysis of the deposited data

How the results depend on the processing

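In upCIN85 versus Mock, the count of the 10 genes past the threshold, 2 in the edgeR fit of all libraries, was 4 with only the 6 libraries of the comparison, 6 with no filter on low counts, 4 in DESeq2, and 1 to 2 with a library left out. In siCIN85 versus siNeg, the count of 4 became 2 with the 6 libraries, 1 with at least 10 counts in every library, where ESM1, TIE1 and ANGPTL4 were not tested, and 0 to 4 with a library left out. The siNeg versus Mock count of 1 became 2 with no filter, 0 with at least 10 counts in every library, where ESM1 was not tested, and 0 to 1 with a library left out, and the difference count of 4 became 3 to 4. Apart from the genes not tested, the cause was not tested. In fits blocked on replicate number, 5 genes passed in upCIN85 versus Mock and 5 in siCIN85 versus siNeg where both experiments were blocked, and 4 and 4 where the knockdown alone was. Same-numbered Mock and upCIN85 libraries had r of 0.326, 0.227 and 0.0989, and every library correlated best with its own number. Mock and upCIN85 libraries of unlike number had r from −0.298 to 0.0303. The labels do not say whether these numbers mark pairs, so fits with and without this block are given. No block was possible for siNeg versus Mock, since numbers were nested in the experiment. Over all genes, upCIN85 versus Mock called 154 genes, and 281 with 6 libraries, 637 with no filter, 1035 and 545 with both blocks or the knockdown block, 311 in DESeq2, and 25 to 260 with a library left out. The same counts for siCIN85 versus siNeg were 131, then 50, 617, 968, 429, 298 and 9 to 362. The siNeg versus Mock count was 66, then 376 with no filter, 183 in DESeq2 and 7 to 134 with a library left out, and the difference count was 122, then 554 with no filter, 918 and 368 with the blocks, 269 in DESeq2 and 33 to 341.

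With a library left out, some small log2FC values changed sign. The lowest and highest were −0.10 and 0.23 for VEGFC in upCIN85 versus Mock, and −0.10 and 0.40 for VEGFC and −0.051 and 0.39 for VEGFA in siCIN85 versus siNeg. In siNeg versus Mock they were −0.24 and 0.053 for VEGFA, −0.22 and 0.070 for VEGFB, −0.22 and 0.12 for FLT1, −0.43 and 0.18 for NRP1 and −0.28 and 0.73 for TIE1. For the difference of both effects they were −0.25 and 0.37 for NRP1 and −0.33 and 0.20 for VEGFC. Over all alternatives and the log2FC of the 10 genes, 468 values kept direction and side of the threshold, 17 passed only under an alternative, 31 no longer passed and 18 changed sign, the last all with a library left out. At 3540641 to 6049458 counts per library, genes with 10 or fewer reads per library, such as ESM1 in upCIN85, leave wide intervals.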
